A study of Mus musculus with 16 samples.

Results

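Hprt and 7 other genes of purine salvage or synthesis were followed in somatic cells of fetal mouse testes with and without Inhba, the gene of the inhibin beta A chain, which forms activin A. The 8 genes are Hprt, Aprt, Adk, Ppat, Gart, Adsl, Impdh1 and Impdh2. They were taken by gene name from a count table of 47729 genes, all 8 had a row, and all 8 passed the filter on low counts that left 20076 genes for testing. Hprt was chosen by its higher level in the knockout, so its values in KO against WT, and in any comparison that uses the KO libraries, are a description without a test. The other 7 were chosen for their place in the pathway.

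Purine nucleotides are made by 2 routes. Salvage joins a free base or nucleoside to phosphoribosyl pyrophosphate (PRPP) or to phosphate and so recycles it, while de novo synthesis builds the purine ring stepwise on PRPP up to inosine monophosphate (IMP), which is then turned into AMP or GMP. Hprt is the salvage enzyme for hypoxanthine and guanine, is encoded on the X chromosome, and is often used as a reference gene in RT-qPCR. Hprt minigenes have also served as selection markers in targeted mouse alleles.

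RNA came from cells of paired gonads, freed of mesonephros, that lacked the Oct4-GFP signal marking germ cells in a fluorescence-activated sort. Every group was of the C57/Bl6/129svJ strain and carried the Oct4-GFP reporter: Inhba x Oct4 GFP WT at E13.5, Inhba x Oct4 GFP KO at E13.5, and the same 2 genotypes at E15.5, with 4 libraries each. The labels speak of 3 to 4 animals per age and genotype, so some libraries could share an animal, and p-values over libraries would then be too small. The titles of KO E15.5 replicates 1 and 2 begin with the same number, 1052, whose meaning the labels do not give. With them summed, 0.0631% of tested genes had an edgeR adjusted p under 0.05 in KO against WT at E15.5, beside 0.149% otherwise. The design of the KO allele is not given in the sources used here. Because the cells were sequenced in bulk, a different share of a cell type and a different amount of RNA per cell cannot be told apart.

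Libraries held 6131592 to 23324810 counts. Inhba fell in KO from 73.3 ± 24.5 to 6.38 ± 1.83 CPM (counts scaled to a common library size, mean ± SD, n = 4) at E13.5 and from 291 ± 68.0 to 42.5 ± 6.13 CPM at E15.5 (log2 fold changes -3.54 ± 0.28 and -2.78 ± 0.26 SE, edgeR quasi-likelihood adjusted p = 1.63e-05 and 5.12e-05). One library stood apart. In KO E13.5 replicate 1 the summed level of 20 germ cell markers was 4914 CPM, against 21.6 to 64.1 CPM in the other 15 libraries, with 19 of the 20 markers higher there than in any other library. The 16 Sertoli cell markers summed to 560 CPM there and to at least 1458 CPM elsewhere. Results were therefore also computed with the 15 libraries that leave it out, a choice made after seeing the data. The 4 groups share 1 estimate of the spread, so leaving it out also narrowed the SE of comparisons that do not use it. The median SE over all genes in KO against WT at E15.5 was 0.271 with 16 libraries and 0.183 with 15. The E15.5 SE printed below for Ppat, Gart, Adsl, Impdh1 and Impdh2 are those of 16 libraries.

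The start of Hprt is shown next to those of Aprt and Gart because their transcripts are the salvage and synthesis members set against it below. Each run is the 250 bases before the RefSeq transcript start, 5′ to 3′ on the strand of the gene in GRCm38.p6, and the capitals mark GC boxes (GGGCGG on either strand). The windows are chrX:52987828-52988077 on the plus strand, chr8:122576908-122577157 on the minus strand and chr16:91646973-91647222 on the minus strand.
Hprt: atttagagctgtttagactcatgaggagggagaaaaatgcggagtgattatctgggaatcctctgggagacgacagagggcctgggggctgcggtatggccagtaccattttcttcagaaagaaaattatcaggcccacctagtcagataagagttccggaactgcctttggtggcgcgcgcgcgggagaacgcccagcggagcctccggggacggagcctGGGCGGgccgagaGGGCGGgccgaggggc
Aprt: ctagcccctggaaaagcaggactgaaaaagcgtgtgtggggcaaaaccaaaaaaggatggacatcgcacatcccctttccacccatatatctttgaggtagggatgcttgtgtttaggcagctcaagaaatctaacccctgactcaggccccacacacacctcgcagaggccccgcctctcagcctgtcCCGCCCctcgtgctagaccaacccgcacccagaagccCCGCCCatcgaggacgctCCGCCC
Gart: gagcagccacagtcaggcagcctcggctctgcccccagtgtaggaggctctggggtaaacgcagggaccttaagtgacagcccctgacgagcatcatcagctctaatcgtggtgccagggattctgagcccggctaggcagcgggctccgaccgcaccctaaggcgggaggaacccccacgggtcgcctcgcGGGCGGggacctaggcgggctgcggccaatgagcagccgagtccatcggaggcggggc

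Hprt had 2 GC boxes in this window, beginning 29 and 16 bases before the start, Aprt had 3 and Gart 1. Each of the other 5 members had at least 1, at every start listed for it, and 32.9% of 27025 promoters of the same length held one. No member had a TATAAA on either strand, which 13.0% of all promoters held, and only Impdh2 among the members had an E-box (CACGTG, the same on both strands), which 6.05% held. By these 3 motifs the window of Hprt held nothing that the windows of the other members lacked.

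Hprt lies on chromosome X at 52988137 to 53021659 on the plus strand in GRCm38, in 9 exons of 1289 bases in all. In WT at E13.5 its level was 41.3, 31.3, 34.8 and 38.3 CPM, and in KO at E13.5 it was 81.5, 49.4, 67.1 and 52.6 CPM. At E15.5 it was 43.1, 42.5, 41.9 and 37.4 CPM in WT and 82.1, 106, 115 and 71.5 CPM in KO. Every KO library lay above every WT library of its age, with KO E13.5 replicate 1 and without it. Such a separation was seen for 3.51% of all tested genes at E13.5, for 6.9% with that replicate left out, and for 3.62% at E15.5, and it is part of how Hprt was chosen.

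The group means of Hprt were 36.4 ± 4.31 CPM in WT and 62.6 ± 14.7 CPM in KO at E13.5 (SD, n = 4), the latter 56.3 ± 9.42 CPM over 3 libraries without replicate 1. At E15.5 they were 41.2 ± 2.59 and 93.4 ± 20.0 CPM. The log2 difference between KO and WT was 0.78 ± 0.17 (SE) at E13.5 with 16 libraries and 0.62 ± 0.15 with 15. At E15.5 it was 1.18 ± 0.17, and 136 of the 20076 tested genes had a larger positive one. In absolute terms the KO mean exceeded the WT mean by 26.2 CPM at E13.5, or 19.9 CPM without replicate 1, and by 52.2 CPM at E15.5. The spread between libraries was wide in KO: the lowest and highest KO E15.5 libraries differed by more than the whole WT range at that age. The log2 difference at E15.5 exceeded that at E13.5 by 0.40 ± 0.24 (SE), or 0.56 ± 0.20 with 15 libraries.

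**Figure D1:**
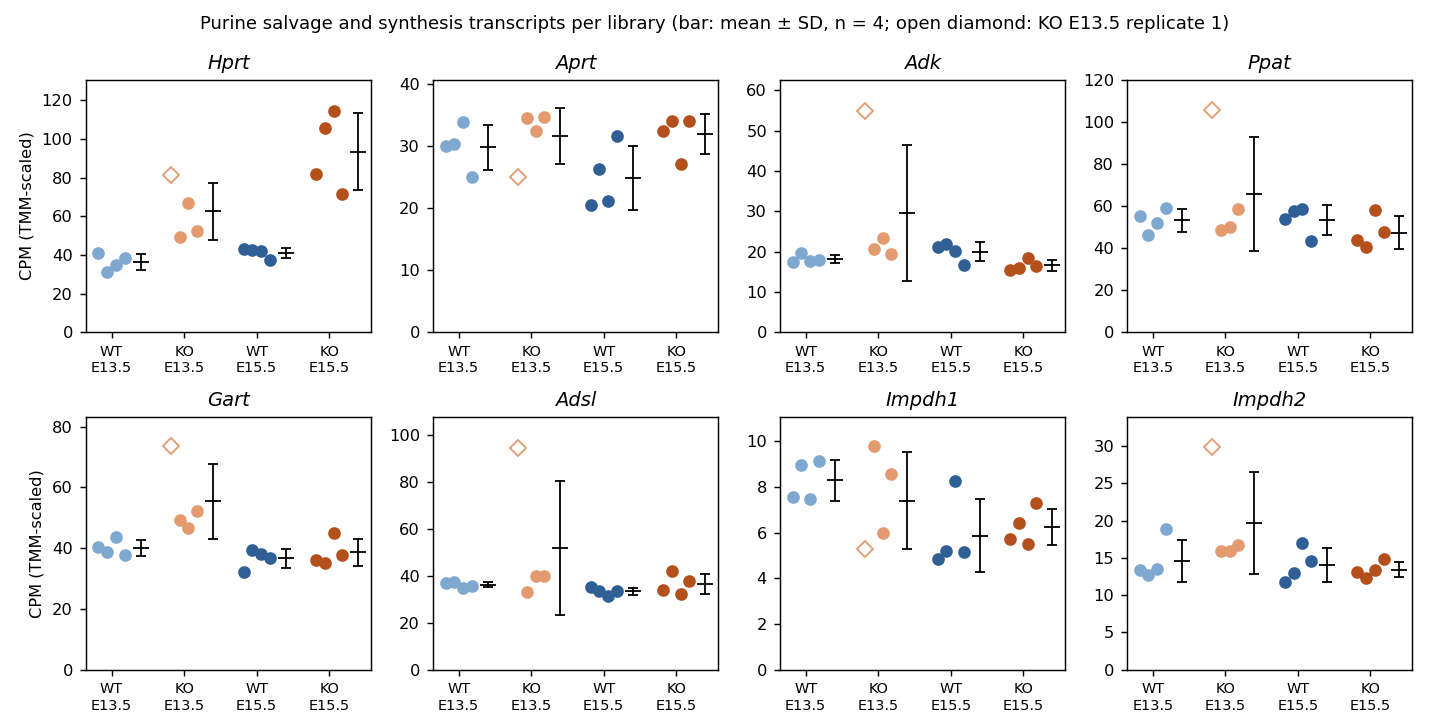
CPM of the 8 genes in each library, by genotype and age, on linear axes from 0. Points are libraries, the bar beside each group is mean ± SD (n = 4), and the open diamond is KO E13.5 replicate 1. Hprt is the panel in which both KO groups sit wholly above the WT group of their age, and the diamond is the top point for Adk, Ppat, Gart, Adsl and Impdh2.

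Inhba and Hprt were both higher in KO at E15.5 than in KO at E13.5. Inhba, whose remaining counts in KO were 4.13, 8.31, 7.32 and 5.74 CPM at E13.5, stood at 50.3, 44.0, 36.2 and 39.3 CPM at E15.5. Among the 4 KO E15.5 libraries the order of the genes differed: replicate 1 was highest for Inhba and replicate 3 for Hprt. The table has one count per gene, so Hprt transcripts from the X chromosome and from a copy placed elsewhere could not be told apart, and whether the KO allele carries such a copy was not tested.

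The genes beside Hprt on chromosome X were read in the same comparison. The 3 nearest tested genes before it were Gm14586, Ccdc160 and Phf6, a chromatin-associated zinc finger gene that ends 31194 bp before Hprt. The 3 after it were Gm28730, which starts 29535 bp beyond its end, Mir351 and Mir503. None of the 6 passed an edgeR adjusted p of 0.05 in KO against WT at either age, with 16 or 15 libraries. At E15.5 the log2 difference was -0.04 ± 0.11 (SE) for Phf6 and 0.01 for Gm28730, and it ran from -0.39 for Mir503 to 0.13 for Gm14586 over the 6. The 3 genes after Hprt were low, with E15.5 WT means of 2.80 CPM (Gm28730), 2.61 CPM (Mir351) and 0.791 CPM (Mir503). Gm14586 averaged 216 CPM in WT and 237 CPM in KO at E15.5. Every KO library of Gm14586 lay above every WT library there, as for 3.62% of all tested genes. The other neighbours overlapped between genotypes at E15.5.

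**Figure D2:**
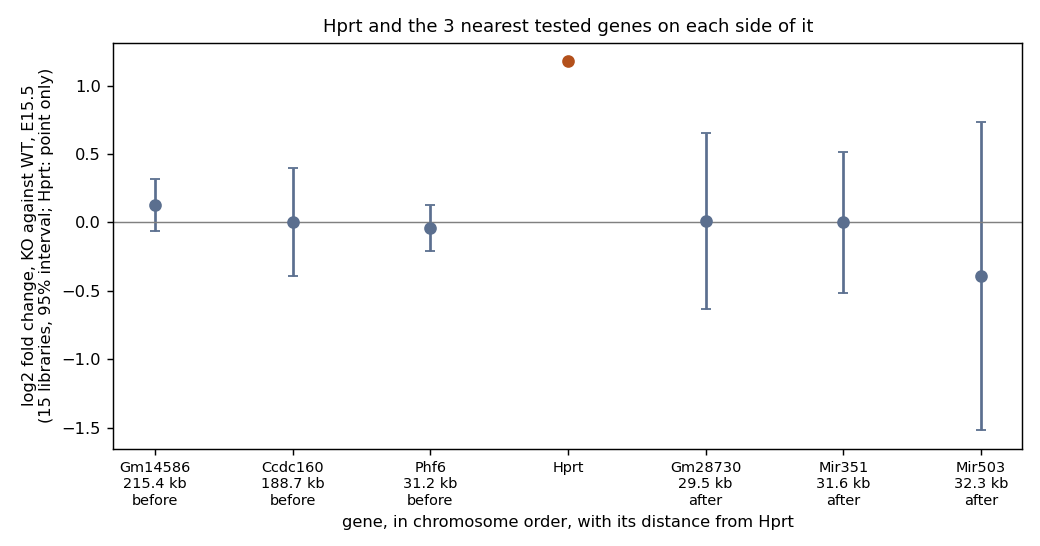
Log2 fold change in KO against WT at E15.5 (15 libraries, vertical axis, points, with 95% intervals except for Hprt) for Hprt and the 3 nearest tested genes on each side, in chromosome order, with their distance from Hprt. Hprt is at 1.18, the value it was chosen by, and the intervals of its 6 neighbours include 0.

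Beside Hprt in the salvage group stand Aprt, which does for adenine what Hprt does for hypoxanthine and guanine, and Adk, which phosphorylates adenosine to AMP. At E15.5 Aprt was 20.5, 26.3, 21.2 and 31.6 CPM in WT and 32.5, 34.1, 27.2 and 34.0 CPM in KO. The groups overlapped, since the highest WT library exceeded the lowest KO one. The log2 difference was 0.36 ± 0.16 (SE) with a 95% interval of 0.02 to 0.70, and the edgeR adjusted p was 0.94 with 16 libraries and 0.236 with 15. At E13.5 it was 30.1, 30.3, 33.9 and 25.0 CPM in WT and 25.0, 34.5, 32.5 and 34.6 CPM in KO, again overlapping, with a log2 difference of 0.08 ± 0.16 (edgeR adjusted p = 0.826), or 0.18 ± 0.14 with 15 libraries (adjusted p = 0.642).

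Adk at E13.5 was 17.5, 19.6, 17.7 and 17.8 CPM in WT and 54.8, 20.6, 23.5 and 19.5 CPM in KO, where replicate 1 was 2.59 times the mean of the other 3. The log2 difference of 0.71 ± 0.26 (SE, edgeR adjusted p = 0.256) became 0.21 ± 0.12 (adjusted p = 0.483) without that library. At E15.5 Adk was 21.2, 22.0, 20.2 and 16.8 CPM in WT and 15.4, 16.1, 18.6 and 16.4 CPM in KO, so 3 of 4 KO libraries lay below every WT library. The log2 difference there was -0.27 ± 0.26 (edgeR adjusted p = 1) with 16 libraries and -0.27 ± 0.11 (95% interval -0.49 to -0.05, adjusted p = 0.276) with 15.

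The first step of de novo synthesis is made by Ppat, the amidotransferase that commits PRPP to the purine ring. At E15.5 Ppat was 53.8, 57.7, 58.7 and 43.5 CPM in WT and 43.8, 40.4, 58.2 and 47.5 CPM in KO, which overlapped (log2 difference -0.17 ± 0.21 SE). At E13.5 it was 55.5, 46.5, 51.8 and 59.3 CPM in WT and 106, 48.8, 50.1 and 58.6 CPM in KO. Only replicate 1 left the WT range, and the log2 difference of 0.31 ± 0.21 (edgeR adjusted p = 0.502) became -0.02 ± 0.13 (adjusted p = 0.974) without it. Ppat shares 272 bp of exon, 6.15% of its exon length, with Paics, a later gene of the route on the opposite strand. Counting did not use strand, so reads over these bases cannot be told apart.

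Gart, a single protein with 3 activities of the route, was the de novo gene with the smallest p at E13.5. It was 40.3, 38.6, 43.7 and 37.7 CPM in WT and 73.5, 49.2, 46.6 and 52.3 CPM in KO. All KO libraries lay above all WT libraries, also with replicate 1 left out. The same held for 3.51% of all tested genes, and for 6.9% without that replicate. It held also for Atic, another de novo gene, while the remaining de novo genes overlapped. The log2 difference of Gart was 0.47 ± 0.14 (SE, 95% interval 0.17 to 0.77, edgeR adjusted p = 0.236) with 16 libraries. With 15 it was 0.30 ± 0.10 (0.09 to 0.51, adjusted p = 0.26), so Gart did not pass over all genes. At E15.5 Gart was 32.3, 39.3, 38.0 and 36.9 CPM in WT and 36.2, 35.2, 45.1 and 37.9 CPM in KO, overlapping, with a log2 difference of 0.08 ± 0.14.

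Adsl acts in both de novo IMP synthesis and the step from IMP to AMP. At E13.5 Adsl was 37.1, 37.2, 35.0 and 35.7 CPM in WT and 94.4, 33.0, 40.1 and 40.1 CPM in KO, and only replicate 1 was far from WT. The log2 difference fell from 0.52 ± 0.24 (SE, edgeR adjusted p = 0.331) to 0.05 ± 0.10 (adjusted p = 0.878) when that library was left out. At E15.5 it was 35.3, 33.4, 31.6 and 33.7 CPM in WT and 34.0, 42.3, 32.3 and 37.6 CPM in KO, with overlap and a log2 difference of 0.13 ± 0.24.

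Impdh1 and Impdh2 are the 2 IMP dehydrogenases, which commit IMP to GMP. At E15.5 Impdh1 was 4.85, 5.20, 8.28 and 5.16 CPM in WT and 5.73, 6.42, 5.52 and 7.31 CPM in KO, and WT replicate 3 was the highest of the 8 (log2 difference 0.09 ± 0.22 SE). At E13.5 Impdh1 was 7.57, 8.95, 7.48 and 9.14 CPM in WT and 5.27, 9.77, 5.99 and 8.56 CPM in KO, with KO libraries on both sides of the WT range (-0.16 ± 0.22, or -0.01 ± 0.21 with 15 libraries). Impdh2 at E15.5 was 11.7, 13.0, 17.0 and 14.6 CPM in WT and 13.1, 12.4, 13.4 and 14.8 CPM in KO, with every KO library inside the WT range (-0.07 ± 0.21). At E13.5 Impdh2 was 13.44, 12.71, 13.47 and 18.83 CPM in WT and 29.92, 15.97, 15.98 and 16.76 CPM in KO (0.43 ± 0.21, or 0.15 ± 0.15 with 15 libraries). Impdh2 values are uncertain: a processed pseudogene, Impdh2-ps, listed as Gm15210 in the count table, matches it at 99.7% over 1545 of 1858 bases and had up to 155 CPM of its own. That highest value was in KO E13.5 replicate 1. At E13.5 Impdh2-ps averaged 48.8 CPM in WT and 82.8 CPM in KO, or 58.6 CPM without that replicate. With and without it, every KO library lay above every WT library, as for 3.51% and 6.9% of all tested genes. At E15.5 the means were 43.2 and 46.7 CPM, with overlap.

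None of the 7 genes other than Hprt passed an edgeR adjusted p of 0.05 in KO against WT at E13.5, where 0.00498% of all tested genes passed (0.0049% with 15 libraries). None passed at E15.5, where 0.149% of all genes passed (1.5% with 15 libraries). At an unadjusted p of 0.05 the counts were 3 of 7 at E13.5 and 1 of 7 at E15.5, beside 14.8% and 4.99% of all genes. With 15 libraries, leaving out KO E13.5 replicate 1, they were 1 of 7 and 2 of 7, beside 12.1% and 12.4%. On 16 libraries DESeq2 passed 0 of 7 at both ages, where 0.264% and 0.528% of all genes passed. Limma-voom also passed 0 of 7, where 0.00996% and 2.72% of all genes passed. The median log2 difference of the 7 was 0.43 at E13.5 and 0.08 at E15.5, beside 0.02 and -0.00 over all genes, and the first of these became 0.15 with 15 libraries. At E15.5 the highest upper 95% limit among the 7 was 0.70, that of Aprt.

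**Figure D3:**
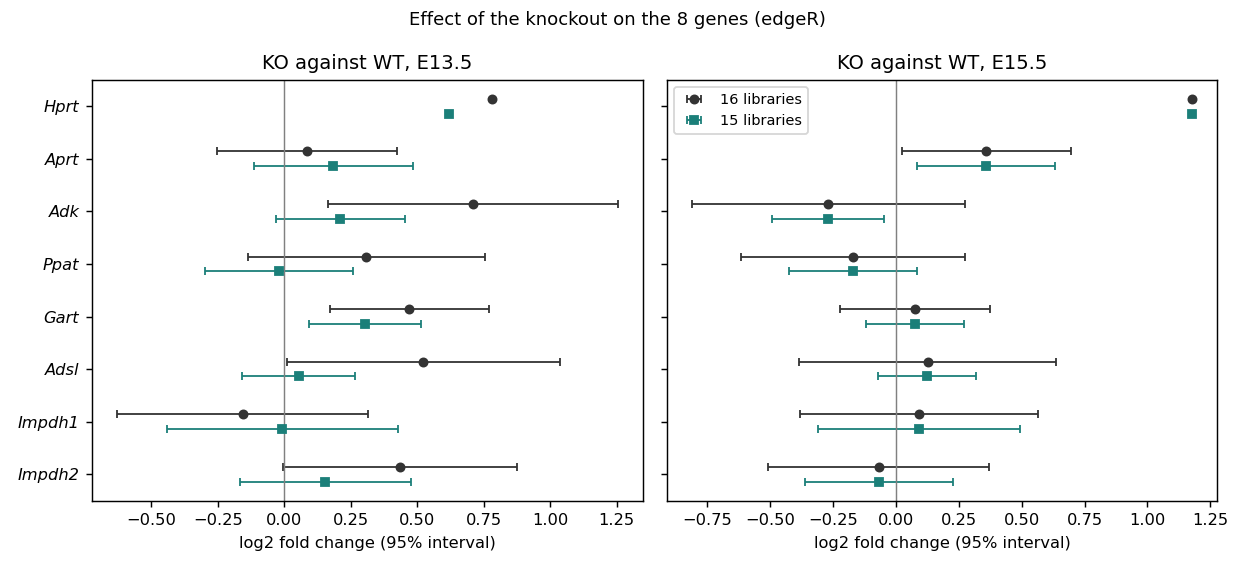
Log2 fold change in KO against WT (horizontal axis) for the 8 genes at E13.5 and E15.5, from all 16 libraries (circles) and from 15 without KO E13.5 replicate 1 (squares), with 95% intervals except for Hprt, which was chosen by these values. At E15.5 the upper limits of the other 7 end at 0.70 or lower, and at E13.5 the values for Adk, Ppat, Adsl and Impdh2 move toward 0 when 15 libraries are used.

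The 8 genes differed in how far KO E13.5 replicate 1 stood from the other libraries of its group. Its level relative to the mean of KO replicates 2 to 4 was 2.59 for Adk, 2.501 for Adsl, 2.02 for Ppat, 1.84 for Impdh2, 1.49 for Gart and 1.45 for Hprt, and it was 0.739 for Aprt and 0.650 for Impdh1. Adk, Ppat, Gart, Adsl and Impdh2 were higher there than in any other library. The summed level of 25 genes of DNA replication and mitosis was 8559 CPM in that library and at most 6073 CPM in the others. The part of germ cell RNA and of dividing cells in the E13.5 values was not tested.

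The wider purine pathway was read from 8 lists with 70 further genes, of which 63 were tested. None of the 63 passed an edgeR adjusted p of 0.05 in KO against WT at E13.5 or E15.5, with 16 or 15 libraries. At an unadjusted p of 0.05 the counts were 7 and 2 of 63 with 16 libraries (11.1% and 3.17%, beside 14.8% and 4.99% of all genes) and 8 and 9 of 63 with 15 (12.7% and 14.3%, beside 12.1% and 12.4%). On 16 libraries limma-voom passed 0 at E13.5 and 1 at E15.5, where 0.00996% and 2.72% of all genes passed. At E15.5 their median log2 difference was -0.04, with 27 of 63 positive, and at E13.5 it was 0.12, with 40 of 63 positive, or 0.04 with 37 of 63 positive with 15 libraries.

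By list, the named genes at E15.5 were those with the smallest p. Over all tested genes 49.6% were positive at E15.5 with 16 libraries and 49.4% with 15. In the salvage list, apart from Hprt, 3 of 4 tested genes were positive. Among the 6 de novo genes 2 were positive, and with 15 libraries the smallest p was that of Pfas, an amidotransferase of the route, at -0.22 ± 0.11 (log2 difference ± SE, edgeR adjusted p = 0.398). Of the 5 genes of PRPP supply 1 was positive, with Prps1, a PRPP synthetase, at -0.22 ± 0.22 (adjusted p = 1). With 15 libraries the smallest p there was that of Prpsap1, at 0.18 ± 0.12 (edgeR adjusted p = 0.618). Among the 14 kinases and reductase genes, Nme4, a mitochondrial nucleoside diphosphate kinase, stood at 0.40 ± 0.13 (adjusted p = 0.536, and 0.0556 with 15 libraries). Lacc1, a purine nucleoside enzyme of macrophages, stood at -0.58 ± 0.20 (adjusted p = 0.659, and 0.0572 with 15). None of the 9 folate genes, which supply one-carbon units to the ring, was positive, and Shmt1, a serine hydroxymethyltransferase, came nearest to the threshold at -0.38 ± 0.09 (adjusted p = 0.0504 with 15 libraries). The replication and mitosis list at E15.5 had 2 of 25 genes positive, with a median of -0.19. At E13.5, 3 of 6 de novo and 3 of 9 folate genes had an unadjusted edgeR p under 0.05 (50% and 33.3%, beside 14.8% of all genes). With 15 libraries 2 and 1 of them did (33.3% and 11.1%, beside 12.1%). The lists of PRPP supply and of IMP to AMP and GMP had 0 of 5 each in both fits.

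**Figure D4:**
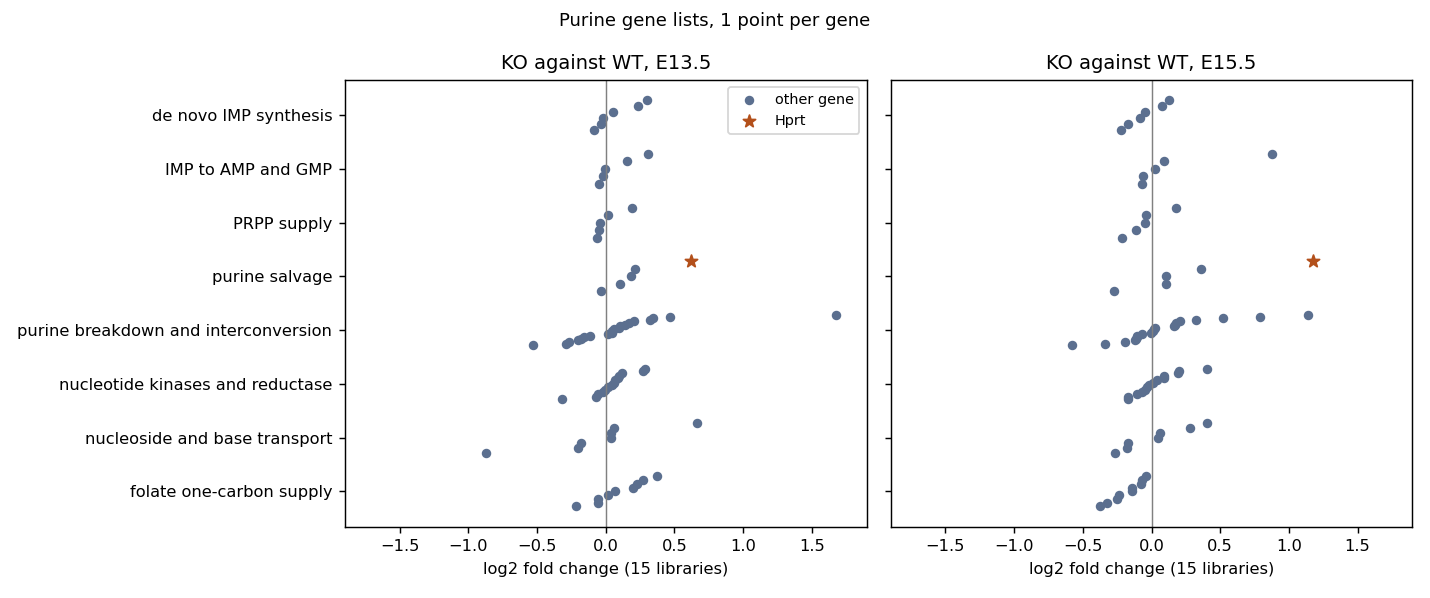
Log2 fold change in KO against WT (horizontal axis, 15 libraries) for every tested gene of the 8 purine lists (rows), 1 point per gene, at E13.5 and E15.5. The star is Hprt, at 0.62 and 1.18. Points to the right of 0.7 other than Hprt carry wide intervals and none passed the test.

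Genes commonly used as RT-qPCR references beside Hprt gave a further comparison. None of 16 tested, Hprt not among them, passed an edgeR adjusted p of 0.05 in KO against WT at either age, and 6 at E13.5 and 0 at E15.5 had an unadjusted p under 0.05 (37.5% and 0%, beside 14.8% and 4.99% of all genes). With 15 libraries 5 and 2 of the 16 had one (31.2% and 12.5%, beside 12.1% and 12.4% of all genes). At E15.5 the smallest p was that of Pgk1, a glycolytic kinase that is also X-linked, with a log2 difference of -0.32 ± 0.18 (SE, adjusted p = 1). The 16 ran from -0.32 to 0.33 at E15.5 and from -0.49 to 0.48 at E13.5, or -0.61 to 0.30 at E13.5 with 15 libraries.

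The age comparison within WT is free of the KO libraries, and it was tested for all 8. None passed an edgeR adjusted p of 0.05, where 6.79% of all genes passed (22.8% with 15 libraries). At an unadjusted p of 0.05 the count was 1 of 8 with 16 and with 15 libraries, beside 22% and 35.7% of all genes. Hprt differed by 0.18 ± 0.17 (log2, SE) between E13.5 and E15.5 (adjusted p = 0.601). Impdh1 was nearest, at -0.50 ± 0.22 (adjusted p = 0.201, and 0.0662 with 15 libraries). Its WT means were 8.28 ± 0.884 CPM at E13.5 and 5.87 ± 1.61 CPM at E15.5 (SD, n = 4), overlapping through WT E15.5 replicate 3.

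Within KO, 2 of the 7 genes other than Hprt fell with age and none rose, where 15.4% of all genes passed in either direction (21.3% with 15 libraries). Gart fell by 0.52 ± 0.14 on the log2 scale (SE, edgeR adjusted p = 0.024), and by 0.36 ± 0.10 with 15 libraries (adjusted p = 0.0182). Its KO libraries spanned 46.6 to 73.5 CPM at E13.5 and 35.2 to 45.1 CPM at E15.5. Adk fell by 0.84 ± 0.26 (adjusted p = 0.0396), and by 0.34 ± 0.12 with 15 libraries (adjusted p = 0.0456), with KO libraries at 19.5 to 54.8 CPM at E13.5 and 15.4 to 18.6 CPM at E15.5. Both calls lie near the threshold: Gart lost its call without KO E15.5 replicate 1, 2 or 4 (adjusted p = 0.0743, 0.0728 and 0.0588), and Adk without any one of the 4 KO E15.5 libraries, the 4 WT E13.5 libraries or WT E15.5 replicates 1 and 2 (adjusted p = 0.0506 to 0.1). Impdh2, at -0.56 ± 0.21 (adjusted p = 0.0785), and Adsl, at -0.51 (adjusted p = 0.151), did not pass, and with 15 libraries they stood at -0.27 ± 0.15 and -0.04 ± 0.10 (adjusted p = 0.208 and 0.79). Ppat went from -0.47 (adjusted p = 0.129) to -0.15 ± 0.13 (adjusted p = 0.452) in the same way. Hprt, a description here because its KO libraries chose it, went the other way, with a log2 difference of 0.58 ± 0.17, or 0.74 ± 0.15 with 15 libraries.

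**Figure D5:**
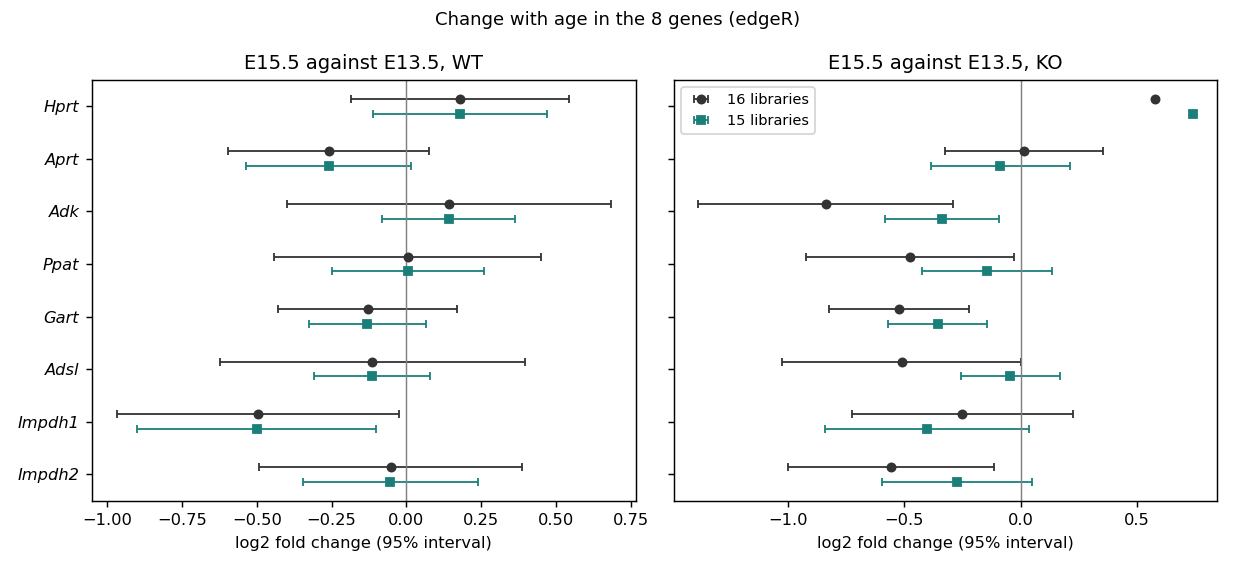
Log2 fold change from E13.5 to E15.5 (horizontal axis) for the 8 genes within WT and within KO, from 16 libraries (circles) and from 15 (squares), with 95% intervals except for Hprt within KO. In WT the points of Hprt lie at 0.18; in KO they lie at 0.58 and 0.74, while Gart and Adk lie to the left of 0 with both sets.

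Whether the knockout effect itself changed with age was tested for the 7 other genes. None passed an edgeR adjusted p of 0.05, where 0.0199% of all genes passed (0.0882% with 15 libraries). At an unadjusted p of 0.05 the count was 1 of 7 with 16 and with 15 libraries, beside 6.34% and 7% of all genes. Adk had the smallest p, with -0.98 ± 0.36 (log2, SE, adjusted p = 0.716), which became -0.48 ± 0.16 (adjusted p = 0.493) with 15 libraries. Gart gave -0.39 ± 0.20, or -0.23 ± 0.14 with 15 libraries. The falls of Gart and Adk in KO are therefore not shown to differ from their changes in WT.

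Per kilobase of exon, in CPM per kb, Hprt was the most abundant of the 8 in WT. At E15.5 the WT means were 32.0 for Hprt, 15.4 for Aprt, 12.1 for Ppat, 7.12 for Gart, 5.95 for Adsl, 4.58 for Impdh2, 2.35 for Adk and 1.78 for Impdh1. Of the neighbours in that order, Aprt and Ppat overlapped between libraries, as did Adk and Impdh1, and the other neighbours did not. In KO at E15.5 Hprt stood at 72.5 CPM per kb. The length used is the union of all annotated exons, 8526 bases for Adk, and it lowers the level of genes with many annotated isoforms.

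The genes whose level followed that of Hprt most closely were taken by Pearson correlation of log2 CPM over 15 libraries. The search covered 11009 genes with a mean of at least 5 CPM and left out symbols with Gm numbers, Rik or -ps. They were Gpm6b, a membrane glycoprotein (r = 0.89), Ptprj, a receptor phosphatase (0.87), Oxr1, an oxidation resistance gene (0.86), Add3, an adducin of the membrane skeleton (0.83), and Tmem50b (0.83). The libraries share genotype and age groups, so these values describe a pattern over 4 groups. With KO E13.5 replicate 1 included, r was 0.21, 0.54, 0.65, 0.43 and 0.09. Gpm6b averaged 171 ± 17.8 CPM in WT and 224 ± 32.2 CPM in KO at E15.5. Among the 7 other members r with Hprt ran from -0.33 for Impdh1 to 0.27 for Aprt.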

How the data were processed

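The authors deposited raw counts per gene for 16 libraries. Per the labels' protocols, about 20 ng of RNA went into Nugen Trio libraries read on a HiSeq3000, and the submitters' processing notes name STAR 2.5.2b, featureCounts (Subread 1.5.2) and GRCm38. Counting did not use strand, per the name of the deposited table. The deposited counts went into edgeR 4.0.16 (R 4.3.3) with filterByExpr, TMM scaling, 1 quasi-likelihood model over the 4 groups, and Benjamini-Hochberg adjustment over all genes at 0.05. Standard errors (SE) were derived from the log2 fold change and its F statistic, and intervals from the t distribution. CPM uses TMM-scaled library sizes. DESeq2 1.42.0 and limma 3.58.1 (voom) were alternatives, and the test was checked on simulated data. Exon lengths come from GENCODE M21 and promoters from RefSeq GRCm38.p6. The members and gene lists were chosen with earlier results of these data known. Genes named beyond the 8 are, per list, up to 4 that passed or else the one with the smallest p, and the 3 nearest tested genes on each side of Hprt. The 5 that correlated best with Hprt among the 11009 genes compared are named too. One gene that this rule names is not reported here. Replicate numbers follow accession order. Hprt had 403 to 2511 counts per library, so that the number of libraries limits its precision more than depth does.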

Additional observations from a re-analysis of the deposited data

Results flagged for a closer look

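In 7 of 32 groups of 4 libraries tested for the 8 genes, 1 library lay farther from the rest than Dixon's 95% limit allows; chance marks about 1 in 20 groups. In 4 of them the library was KO E13.5 replicate 1: Adk at 54.8 CPM, Ppat at 106 CPM, Adsl at 94.4 CPM and Impdh2 at 29.9 CPM. In WT at E13.5 the highest Adk library, at 19.6 CPM, and the highest Impdh2 library, at 18.8 CPM, were marked. In WT at E15.5 it was the highest Impdh1 library, at 8.28 CPM. No group of Hprt, Aprt or Gart was marked.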

How the results depend on the processing

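No paired analysis was possible because replicate numbers follow accession order and only title number 855 stands in both genotypes at an age. Hprt in KO against WT kept its direction under all alternatives, from 0.57 to 0.88 (log2) at E13.5, or 0.49 to 0.71 in sets based on 15 libraries, and from 1.04 to 1.29 at E15.5, and none of the 7 other members passed at E13.5 under any of the 24 others tried on 16 libraries. The falls with age in KO were less stable: Gart passed in 18 of these 24 and Adk in 10. Of these 7, 1 passed with upper quartile scaling, and 0 without a filter, in the 8 KO libraries alone or with libraries of 1 title number summed, and 0 to 2 when libraries were left out. Of the 63 further purine genes, 6, 5, 17, 2 and 3 passed with age in KO under upper quartile scaling, no filter, DESeq2, 8 libraries and summed libraries, where 13.8%, 6.5%, 20.6%, 1.8% and 6.66% of all genes passed, and 3 to 15 with libraries left out. With age in WT 19 passed with voom, 16 with the 8 WT libraries, 19 with DESeq2 on 15 libraries, where 32.1%, 24% and 25.9% of all genes passed, and 3 to 18 with libraries left out. Of the 8 members 1, Impdh1, passed there with voom and with DESeq2 on 15 libraries, and 0 to 1 with libraries left out. In KO against WT at E15.5, 1 of the 63 passed with voom, 3 with DESeq2 on 15 libraries, where 2.72% and 3.13% of all genes passed, and 0 to 3 with libraries left out, and 0 to 1 of the 7 members, the 1 being Aprt. Small log2 values changed sign. At E13.5 Impdh1 was 0.052 with voom and -0.32 to 0.14 with libraries left out, Ppat was -0.024 with DESeq2 on 15 libraries and -0.11 to 0.43, and Adsl was -0.00058 to 0.69. At E15.5 Impdh2 was 0.018 with voom and -0.15 to 0.035. The difference of effects was 0.015 with voom, 0.083 with DESeq2 on 15 libraries and -0.56 to 0.15 for Adsl, and -0.053 to 0.46 for Impdh1. With age in WT Ppat was -0.016 without a filter, -0.0028 with a CPM filter, -0.00153 with 8 libraries, and -0.057 to 0.091, and Impdh2 was -0.16 to 0.092. With age in KO Aprt was -0.072 with voom, -0.00705 with summed libraries, -0.077 with DESeq2 on 15 libraries and -0.12 to 0.089, and Adsl was -0.67 to 0.024. The causes were not tested.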

Other observations

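Single genes of purine breakdown and interconversion changed with age in both genotypes. Of the 20 tested genes of that list, 3 passed in WT and 3 in KO (15% each), beside 6.79% and 15.4% of all genes, and 9 and 8 passed with 15 libraries (45% and 40%, beside 22.8% and 21.3%). Gda, the guanine deaminase, rose from E13.5 to E15.5 in WT (log2 change 2.97 ± 0.57 SE, edgeR adjusted p = 0.00622) and in KO (3.33 ± 0.59, adjusted p = 0.00319, or 3.18 ± 0.65 with 15 libraries). Gda began from a low level, with means of 0.509 CPM at E13.5 and 3.96 CPM at E15.5 in WT, and 0.534 and 5.65 CPM in KO. Ampd3, an AMP deaminase, rose in WT by 1.17 ± 0.26 (adjusted p = 0.0133) and in KO by 1.73 ± 0.27 (adjusted p = 0.00133, or 1.48 ± 0.21 with 15 libraries). Gmpr, which returns GMP to IMP, fell by 0.89 ± 0.23 in WT (adjusted p = 0.0285) and by 0.73 ± 0.23 in KO (adjusted p = 0.0419, or by 0.82 ± 0.22 with 15 libraries). In the other lists, the kinase Nme4 fell by 1.04 ± 0.13 in WT (adjusted p = 0.000271) and by 0.68 ± 0.13 in KO (adjusted p = 0.00444, or by 0.76 ± 0.11 with 15 libraries). Slc29a4, a nucleoside and monoamine transporter, fell in WT by 1.79 ± 0.37 (adjusted p = 0.00856). Its level was low, with means of 2.37 CPM at E13.5 and 0.678 CPM at E15.5 in WT. In KO they were 1.06 and 0.913 CPM, and none of the 7 tested transport genes passed there with 16 or 15 libraries. Of the 63 further purine genes, 2 rose and 3 fell in WT (7.94%), and 3 rose and 7 fell in KO (15.9%), shares close to those of all genes. With 15 libraries 8 rose and 7 fell in WT (23.8%, beside 22.8% of all genes), and 4 rose and 10 fell in KO (22.2%, beside 21.3%). Markers of macrophages also stood higher at E15.5, with a median log2 change of 1.17 over 16 markers in WT and a summed level of 75.8 to 103 CPM at E13.5 and 172 to 377 CPM at E15.5; their part in these changes was not tested.

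Among the 16 reference genes, Rpl13a and Sdha fell and Ppia rose with age within KO (log2 changes -0.73, -0.40 and 0.63, edgeR adjusted p = 0.0165, 0.0222 and 0.0466). With 15 libraries the changes were -0.47, -0.32 and 0.81 (adjusted p = 0.00639, 0.013 and 0.00691). Eef1a1 also fell, by 0.32 with 16 libraries and by 0.26 with 15.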
